A study of Mus musculus with 8 samples.

Results

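The 49 genes described here encode the machinery that licenses replication origins, opens them and copies DNA at the fork, from the origin recognition complex to the enzymes that supply deoxynucleotides. They were chosen by name, with earlier results of these data known, from the 23278 genes listed in each of 4 comparison tables. All 49 were present and tested in all 4. RNA from sorted C57BL/6 mouse thymocytes was sequenced in 8 libraries, 2 in each of 4 groups. The cells were double-positive (CD4+CD8+) and carried GFP. DP1 cells had low surface CD5 and low TCRβ, and DP2 cells had high CD5 and intermediate TCRβ, a later point of the same stage. Each population came from WT control animals (Hdac3+/+) and from Hdac3KO animals (Hdac3F/F LCK-Cre+), in which Cre driven by the LCK promoter, active in the T lineage, deletes Hdac3, a histone deacetylase that works within NCoR and SMRT corepressors. The study asked which transcripts changed in these populations after the deletion. The libraries were made from RNA pools and the labels do not say whether the replicates came from separate animals, so the p-values measure only the spread between these samples, which may be technical. Age and sex of the animals and the source of the GFP are not given in the labels. Each table holds 1 value per gene and group, in FPKM (fragments per kilobase of transcript, scaled for library size within each table). Values of single libraries therefore cannot be shown. Every FPKM below is the authors' value for its group, every q is the authors' Benjamini-Hochberg adjusted p from Cuffdiff over all genes tested in that table, and a gene is said to have risen or fallen where q was 0.05 or less.

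A cell may copy its genome only once per division. In late mitosis and G1 the origin recognition complex, Cdc6 and Cdt1 load the ring-shaped Mcm2-7 helicase onto DNA, and geminin (Gmnn) later blocks Cdt1 so that no origin is loaded again. In S phase the kinase Cdc7, with Mcm10, Cdc45 and the GINS complex, converts the loaded ring into a moving helicase. Polymerase alpha-primase then lays down primers, polymerases delta and epsilon extend them on the sliding clamp PCNA, and Fen1 and Lig1 join the fragments of the lagging strand. Many of these genes are known targets of E2F transcription factors and are transcribed mainly around the start of S phase. In the thymus, cells that pass β-selection divide several times before they become small, resting double-positive cells. Bulk RNA of a sorted population cannot tell fewer cells in S phase from less RNA per cell.

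The labels were checked first on the targeted gene. Hdac3 measured 38.1 FPKM in WT DP1 and 11.7 in Hdac3KO DP1 per the authors' deposited table (q = 0.000879), and 30.7% of the WT level remained. In DP2 it measured 29.7 FPKM in WT and 15.4 in Hdac3KO per the authors' deposited table (q = 0.0131), and 51.9% remained. Both differences follow the labels. The genotypes also differed in sex-linked transcripts. Xist, which coats the inactive X chromosome, measured 0.0945 and 0.243 FPKM in WT DP1 and DP2 against 208 and 139 in Hdac3KO per the authors' deposited table, and the Y-linked Kdm5d measured 20.01 and 34.6 FPKM in WT against 0.264 and 0.322 in Hdac3KO. Sex and genotype therefore cannot be told apart in the genotype comparisons, and Pola1 is the 1 member on the X chromosome. The 10 markers of double-positive thymocytes were all tested and summed to between 3259 and 7143 FPKM in the genotype tables, with Cd1d1 the scarcest in DP1 at 11.4 FPKM in WT and 9.19 in Hdac3KO per the authors' deposited table. Of the other cell types, the 4 B cell markers summed to at most 3.10 FPKM, the 3 gamma-delta and NK markers to at most 1.61, the 2 erythroid markers to at most 2.69 and the 5 epithelium markers to between 6.27 and 12.6. The 5 myeloid markers summed to 71.1 FPKM in WT DP1, 37.8 in Hdac3KO DP1, 52.8 in WT DP2 and 50.9 in Hdac3KO DP2. Some of these moved with the genotype in DP1: Cst3 (67.8 to 27.6 FPKM) fell, and Itgam (2.40 to 9.58), Alas2 (0.676 to 2.51) and Psmb11 (3.21 to 7.30) rose per the authors' deposited table. In DP2 Itgam rose from 1.60 to 15.7 FPKM per the authors' deposited table. The part of other cell types in the members' changes was not tested.

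Promoter sequence of 6 members is shown because these genes span the patterns described below. Mcm5, Mcm6 and Rrm1 fell in Hdac3KO cells of both populations, Mcm2 fell in DP1 and not in DP2, Pola1 fell in DP2 and not in DP1, and Orc1 was the 1 member that rose. The stretches are reference sequence from RefSeq (GRCm38.p6, the assembly behind mm10), written 5′ to 3′ on the gene's strand, and they overlap no exon of a protein-coding transcript in GENCODE M21, although the end of the Orc1 stretch reaches into the first exon of its non-coding transcripts. Capitals mark exact matches, on either strand, to an E2F site (TTTCCCGC, TTTCGCGC, TTTGCCGC or TTTGGCGC) or to the CCAAT box, the site known for NF-Y. Neighbouring E2F matches on opposite strands can overlap and then form a longer run of capitals. The stretches lie at chr8:75109309-75109508 on the plus strand for Mcm5, chr1:128359706-128359905 on the minus strand for Mcm6, chr6:88898781-88898930 on the minus strand for Mcm2, chr7:102441545-102441694 on the plus strand for Rrm1, chrX:93632156-93632355 on the minus strand for Pola1, and chr4:108579337-108579453 on the plus strand for Orc1.
Mcm5: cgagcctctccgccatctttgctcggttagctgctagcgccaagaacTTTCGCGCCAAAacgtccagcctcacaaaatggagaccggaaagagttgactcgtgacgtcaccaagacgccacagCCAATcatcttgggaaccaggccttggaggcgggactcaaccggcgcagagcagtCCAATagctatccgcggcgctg
Mcm6: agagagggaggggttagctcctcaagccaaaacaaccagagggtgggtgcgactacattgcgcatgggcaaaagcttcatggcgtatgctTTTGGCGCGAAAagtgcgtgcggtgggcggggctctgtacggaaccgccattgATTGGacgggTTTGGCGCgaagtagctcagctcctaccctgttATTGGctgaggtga
Mcm2: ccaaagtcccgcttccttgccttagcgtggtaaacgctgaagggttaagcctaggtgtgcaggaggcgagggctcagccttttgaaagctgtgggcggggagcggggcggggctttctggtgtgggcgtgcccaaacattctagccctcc
Rrm1: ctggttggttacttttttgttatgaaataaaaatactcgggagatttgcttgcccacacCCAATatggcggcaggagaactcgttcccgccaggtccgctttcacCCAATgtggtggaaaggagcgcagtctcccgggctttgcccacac
Pola1: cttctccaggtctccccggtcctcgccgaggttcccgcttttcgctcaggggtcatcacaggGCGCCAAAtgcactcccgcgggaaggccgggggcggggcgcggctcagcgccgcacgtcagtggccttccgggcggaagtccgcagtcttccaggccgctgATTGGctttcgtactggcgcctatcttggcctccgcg
Orc1: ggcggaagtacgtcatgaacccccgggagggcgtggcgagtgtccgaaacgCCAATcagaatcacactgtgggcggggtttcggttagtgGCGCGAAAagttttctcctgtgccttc

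The Mcm5 stretch holds 2 overlapping E2F matches and 2 CCAAT boxes, and the Mcm6 stretch holds 3 E2F matches and 2 CCAAT boxes. The Pola1 and Orc1 stretches hold 1 of each. The Rrm1 stretch has 2 CCAAT boxes and no E2F match, and the Mcm2 stretch has neither. RefSeq promoters of 300 bases, 250 before and 50 after the start site, were at hand for 41 of the 49 members. The printed stretches are shorter than these promoters and unequal in length, so their counts cannot be set against each other. In its full promoter Mcm2 has a CCAAT box, at base -175 from the start site. Further CCAAT boxes outside the stretches lie at -120 in Orc1 and at 7 in Mcm5. Matches were counted per gene, at any of its start sites. An E2F match stood in 15 of these 41 (36.59%), against 5.119% of 7404 tested genes with a promoter and 2.605% of all 27025 genes with one. CCAAT stood in 24 of the 41 members (58.54%), against 43.76% of the tested genes and 41.06% of all genes with a promoter. The CHR element TTTGAA, known from genes of mitosis, stood in 6 (14.63%), near the 14.4% of tested genes. A match is a run of letters and was not measured as a bound site. In DP1, 8 of the 15 members with an E2F match fell in Hdac3KO and 16 of the 26 without one did, with median log2 changes of -0.76 and -0.84. Between the stages in WT, 14 of 15 with a match and 20 of 26 without one fell, with medians of -1.82 and -1.81.

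The members were abundant in the early population. Their median level per the authors' deposited table was 42.5 FPKM in WT DP1, 26.0 in Hdac3KO DP1, 17.1 in WT DP2 and 15.03 in Hdac3KO DP2. In WT DP1, 48 of the 49 lay above the median of the tested genes, and in Hdac3KO DP2 26 did. FPKM is scaled by transcript length, so levels can be set between genes within a group, although the trend with length in DP1 described below touches ratios between genes of unequal length. PCNA was the most abundant member in every group, at 2.95 times the next member in WT DP1 and 3.63 times in WT DP2. The scarcest was Orc1 in both WT groups, Pole2 in Hdac3KO DP1 and Mcm10 in Hdac3KO DP2. The 6 subunits of the MCM ring assemble one to one, and their transcripts lay within 2.17-fold of each other in WT DP1, 2.47-fold in Hdac3KO DP1, 2.36-fold in WT DP2 and 4.07-fold in Hdac3KO DP2. Mcm7 was the highest of them in all 4 groups, and Mcm5 was the lowest in every group except WT DP1, where Mcm4 was. Cdt1 stood at 0.736 times the level of its inhibitor geminin in WT DP1 and 0.790 times in WT DP2, against 1.32 and 1.63 times in the Hdac3KO groups. In DP1 the log2 changes behind this ratio, -1.20 for geminin and -0.36 for Cdt1, became -0.59 and -0.13 with the length trend removed. The ratio of Rrm2 to Rrm1, the small and large subunit of ribonucleotide reductase, was 2.17 in WT DP1, 2.03 in Hdac3KO DP1, 1.74 in WT DP2 and 1.30 in Hdac3KO DP2. Its direction in DP1 turned with the length trend removed, where Rrm2 had a log2 change of -0.48 and Rrm1 one of -0.92. These ratios of group values carry no error, because the tables give no value per library.

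**Figure D1:**
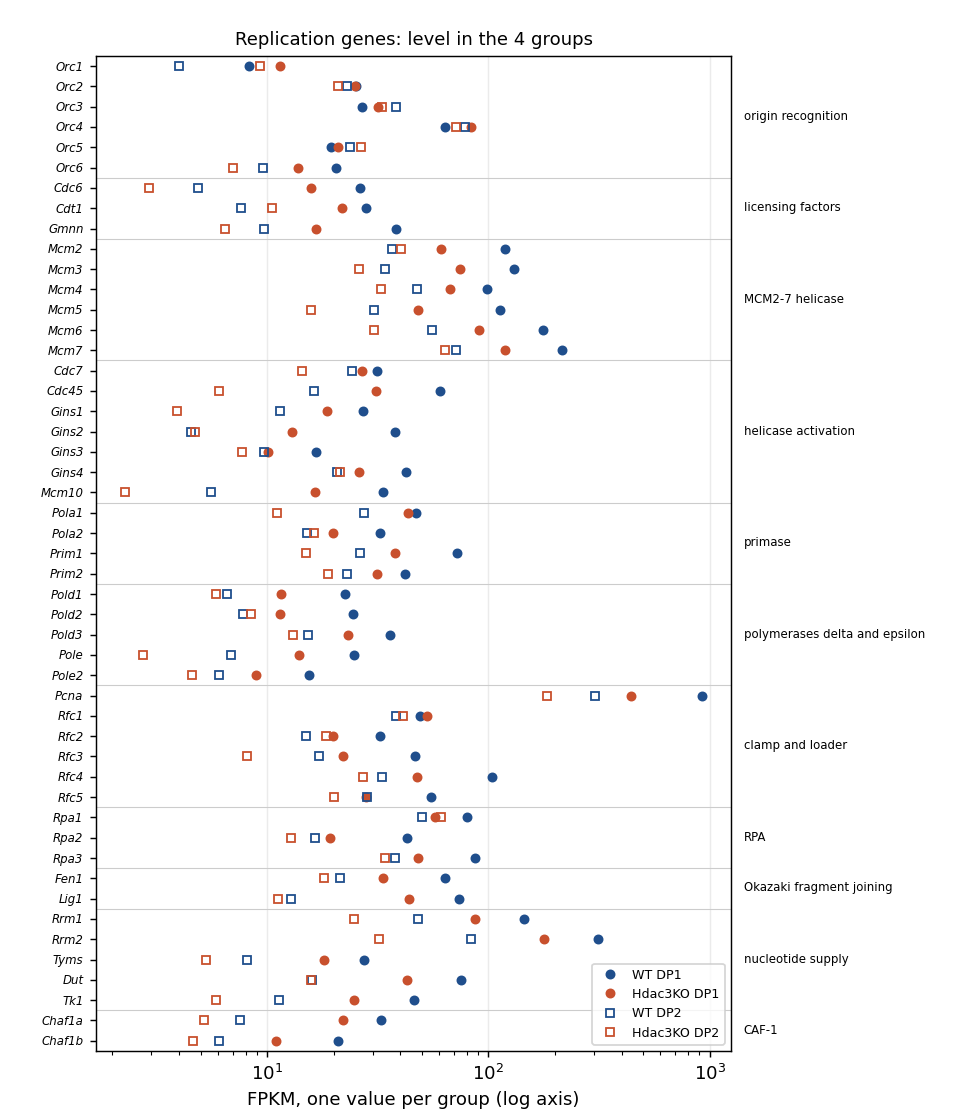
Level of each of the 49 members in the 4 groups, as the authors' FPKM on a log axis, ordered by role, from the genotype tables. Each point is 1 group value without an error. WT DP1 lies highest for most members, PCNA stands above all others, and origin recognition genes other than Orc1 and Orc6 lie close together across the groups.

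Loss of Hdac3 was accompanied in DP1 by lower levels across most of the replication machinery. Of the 49 members, 28 fell (57.1%) and none rose, against 12.9% of all 10511 tested genes that fell and 10.7% that rose. The members' median log2 change was -0.80, against -0.10 over all tested genes, and 44 members lay below 0. The 5 above 0 were Orc1, Orc3, Orc4, Orc5 and Rfc1, none of which passed the test. The calls ranged by role from 0 of 6 origin recognition genes to 5 of 6 MCM subunits and both genes of fragment joining.

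Among the genes that prepare origins, the recognition complex itself showed no call. Its 6 genes ranged from a log2 change of -0.57 for Orc6 to 0.47 for Orc1. Orc1 measured 8.28 FPKM in WT DP1 and 11.4 in Hdac3KO DP1 per the authors' deposited table (q = 0.219). Of the licensing factors, 2 of 3 fell. Geminin had 38.2 FPKM in WT and 16.6 in Hdac3KO per the authors' deposited table (q = 0.00154), a log2 change of -1.20 ± 0.31 (SE). Here and below the SE is worked back from the deposited p, and it is an upper bound where that p is at its smallest value, 5e-05. The loader Cdc6 went from 26.2 to 15.8 FPKM per the authors' deposited table (q = 0.0202). Cdt1, the other loader, measured 28.1 and 21.8 FPKM per the authors' deposited table and did not pass.

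Of the MCM subunits, all but Mcm4 fell. Mcm5 had the largest change of the ring, from 112 FPKM in WT DP1 to 48.2 in Hdac3KO DP1 per the authors' deposited table (q = 0.000879). Its log2 change was -1.22 ± 0.30, which left 42.9% of the WT level. Mcm2 went from 119 to 61.0 FPKM and Mcm6 from 177 to 91.2 FPKM per the authors' deposited table (q = 0.00255 and 0.00352). The log2 changes of Mcm3 and Mcm7 were -0.81 ± 0.25 and -0.85 ± 0.25. Mcm4 measured 98.9 and 67.2 FPKM per the authors' deposited table (q = 0.0877). Across the ring, between 42.9% (Mcm5) and 68.0% (Mcm4) of the WT level remained.

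Of the 7 genes that activate the loaded helicase, 3 fell. Mcm10, which helps to start unwinding, went from 33.3 FPKM in WT to 16.4 in Hdac3KO per the authors' deposited table (q = 0.000879), a log2 change of -1.02 ± 0.25. Cdc45, a subunit of the moving helicase, went from 60.7 to 31.2 FPKM per the authors' deposited table (q = 0.00154). Gins4 fell by 0.71 ± 0.27 on the log2 scale, but had a log2 change of -0.16 with the trend on transcript length removed (adjusted p of 0.753). Gins2 had the lowest log2 change of any member, -1.56, with the widest SE, 1.37, and did not pass. The kinase gene Cdc7 had a log2 change of -0.23 ± 0.26.

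At the fork, 2 of 4 genes of polymerase alpha-primase fell. Prim1, the catalytic primase subunit, went from 71.9 FPKM in WT DP1 to 37.8 in Hdac3KO DP1 per the authors' deposited table (q = 0.00476). Pola1, the catalytic polymerase subunit, measured 47.3 and 43.2 FPKM per the authors' deposited table (q = 0.758). Of the replicative polymerases 3 of 5 subunits fell. Pold2, an accessory subunit of polymerase delta, had the largest change of these, from 24.5 to 11.5 FPKM per the authors' deposited table (q = 0.00207), and the catalytic subunits Pold1 and Pole had log2 changes of -0.97 ± 0.24 and -0.83 ± 0.26. PCNA, the sliding clamp, went from 927 to 442 FPKM per the authors' deposited table (q = 0.000879), with a log2 change of -1.07 ± 0.26. Of the clamp loader genes Rfc2, Rfc3 and Rfc5 fell. Rfc3 had the largest of these changes, from 46.8 to 22.1 FPKM per the authors' deposited table (q = 0.00303). Rfc1, the large loader subunit, had a log2 change of 0.10 ± 0.25. Rpa2, a subunit of the protein that coats single-stranded DNA, went from 43.1 to 19.2 FPKM per the authors' deposited table (q = 0.000879), and Rpa3 fell by 0.87 ± 0.30 on the log2 scale. With the length trend removed the change of Rpa3 was -0.11 (adjusted p of 0.863).

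Both genes that finish lagging-strand fragments fell. Fen1, the flap nuclease, went from 63.4 FPKM in WT to 33.2 in Hdac3KO per the authors' deposited table (q = 0.00476), and the ligase gene Lig1 had a log2 change of -0.76 ± 0.25. Neither kept the call with the length trend removed (adjusted p of 0.088 and 0.0744). Of the 5 nucleotide supply genes 4 fell. Tk1, which salvages thymidine, had the largest of these changes, from 46.0 to 24.7 FPKM per the authors' deposited table (q = 0.0168). Rrm2 went from 314 to 178 FPKM and Rrm1 from 145 to 87.3 FPKM per the authors' deposited table (q = 0.0117 and 0.0256). Tyms, thymidylate synthase, had a log2 change of -0.60 ± 0.25 and did not pass. Chaf1b, a subunit of the CAF-1 chaperone that deposits histones behind the fork, went from 20.95 to 10.9 FPKM per the authors' deposited table (q = 0.00627), and Chaf1a did not pass.

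**Figure D2:**
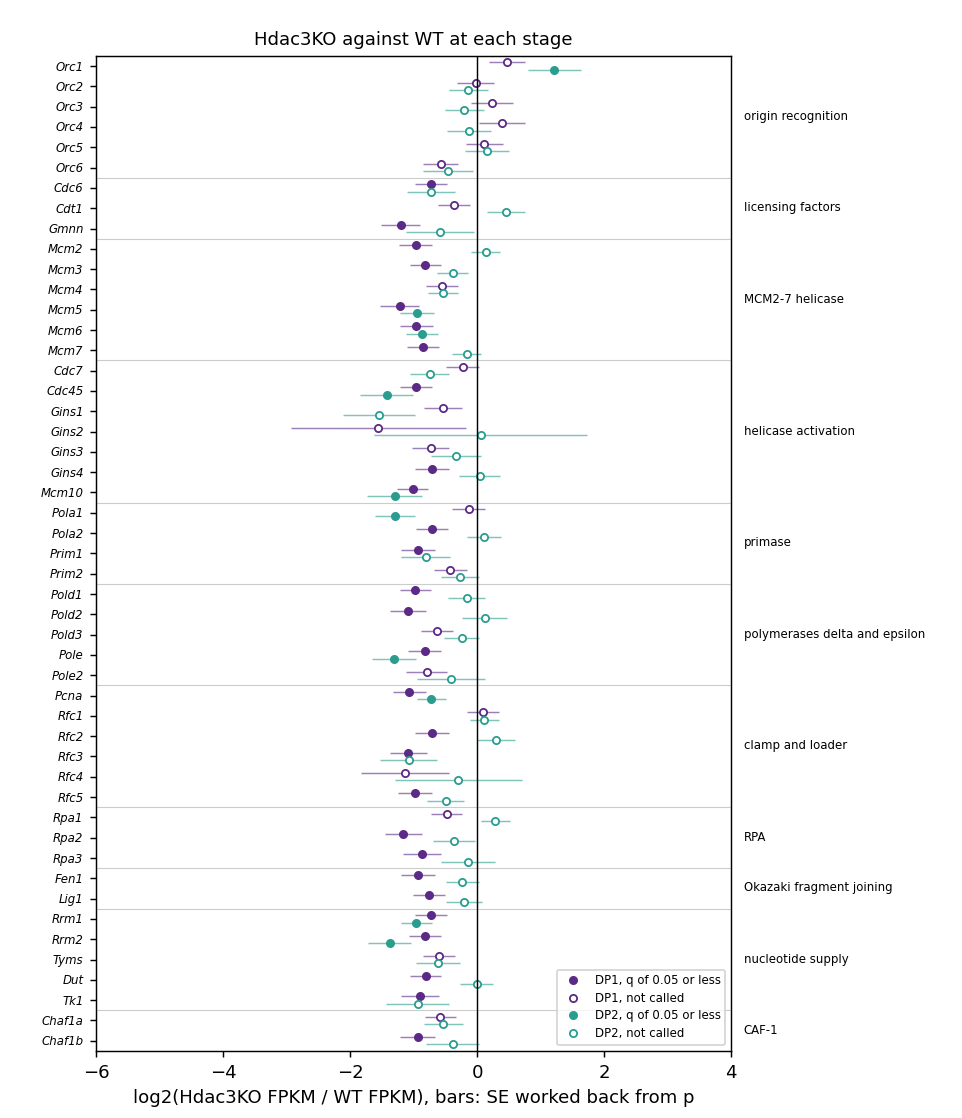
Log2 change of Hdac3KO against WT for the 49 members, ordered by role, in DP1 and in DP2. Points are the log2 ratio of the authors' FPKM, bars are the SE derived from the deposited p, and filled points have q of 0.05 or less. In DP1 28 members fell and none rose, and in DP2 9 fell and Orc1 rose.

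The DP1 comparison carried a trend with transcript length. Over 5254 genes with 10 FPKM or more in both groups, the log2 change was higher for longer transcripts, with a Spearman rho of 0.50 across genes, which are not independent replicates, and over the 49 members rho was 0.29. Across genes rho was 0.40 for DP2 against DP1 in WT, 0.02 for the genotypes in DP2 and -0.15 for the stages in Hdac3KO, so the trend was strongest in the 2 comparisons that share the WT DP1 libraries. With changes centred on the median gene, 22 members were lower and none higher, against 9.07% and 13.7% of all genes. With the length trend removed, 14 members were lower and none higher, against 5.89% and 8.9%, and the members' median log2 change was -0.59. Of the 28, 13 kept the call, among them Mcm2, Mcm3, Mcm5, Mcm6, Mcm10, Cdc6, Prim1, Pold1, Pole and Rrm1. The 15 that lost it were geminin, Mcm7, Cdc45, Gins4, Pola2, Pold2, PCNA, Rpa2, Rpa3, Fen1, Lig1, Rrm2, Dut, Tk1 and Chaf1b, which left no call among the RPA and fragment-joining genes. PCNA then had a log2 change of -0.57 with an adjusted p of 0.129, Rrm2 one of -0.48 with an adjusted p of 0.208, and geminin one of -0.59. For PCNA and Rpa2 the deposited p was at its floor, so their SE are upper bounds. Their adjusted p here (0.0604 for Rpa2) are then upper bounds too, and the loss of these calls is not settled. Chaf1a, not among the 28, passed with the trend removed.

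**Figure D3:**
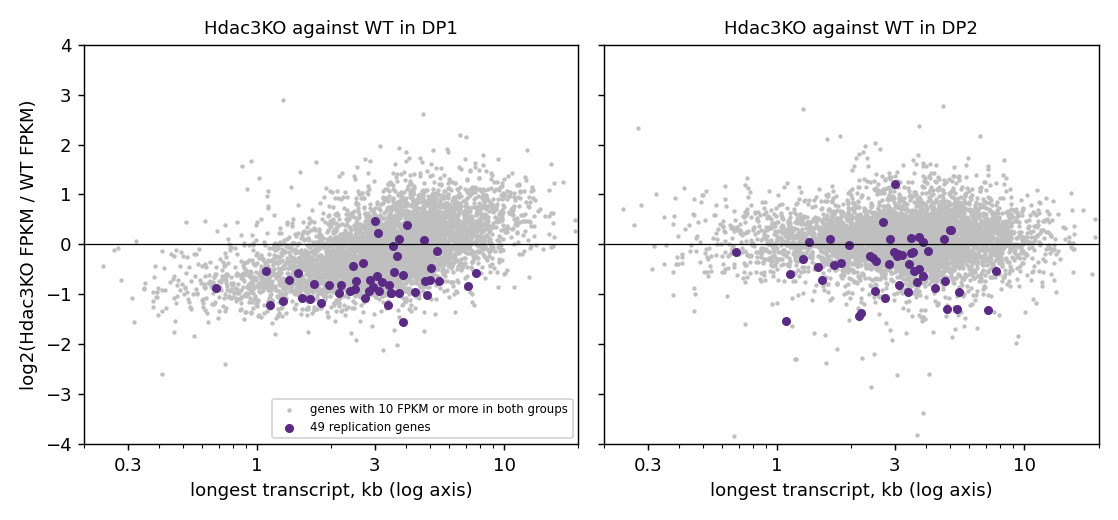
Log2 change of Hdac3KO against WT in DP1 (left) and DP2 (right) against the length of the longest transcript in kilobases, on a log axis, for genes with 10 FPKM or more in both groups and for the 49 members, within a window of 4 on either side of 0. In DP1 short genes lie lower and most members lie below other genes of their length, and in DP2 rho over genes is 0.02.

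In DP2 fewer members differed between the genotypes. Of the 49, 9 fell (18.4%) and 1 rose, against 4.32% of all 10674 tested genes that fell and 6.44% that rose. The median log2 change was -0.36, against 0.10 over all tested genes. The 9 were Mcm5, Mcm6, Cdc45, Mcm10, Pola1, Pole, Pcna, Rrm1 and Rrm2, which span the ring, its activation, priming, leading-strand synthesis, the clamp and ribonucleotide reductase. Of these 9, 8 had also fallen in DP1 (88.9% of the 9, 28.6% of the 28), and Pola1 had not. These comparisons share no libraries. With changes centred on the median gene 11 members were lower and none higher, against 5.78% and 4.37% of all genes.

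Rrm2 and Pola1 had the smallest q of the 9. Rrm2 went from 83.2 FPKM in WT DP2 to 32.0 in Hdac3KO DP2 per the authors' deposited table (q = 0.00134), which left 38.4% of the WT level. Its partner Rrm1 went from 47.9 to 24.7 FPKM per the authors' deposited table (q = 0.00245). Ribonucleotide reductase, the enzyme that makes deoxynucleotides, thus fell in both of these subunits. Cdc45 went from 16.3 to 6.09 FPKM per the authors' deposited table (q = 0.0114), a log2 change of -1.43 ± 0.42. Mcm10 was scarce in both groups, at 5.60 and 2.28 FPKM per the authors' deposited table (q = 0.0296). The polymerase epsilon gene Pole went from 6.85 to 2.75 FPKM per the authors' deposited table (q = 0.00338), and it lost a larger share of its transcripts than any other called member except Cdc45 and Rrm2. Gins1 had the lowest log2 change of all members, -1.54 ± 0.57, from 11.4 to 3.93 FPKM, and did not pass (q = 0.0585). It passed when centred (adjusted p of 0.0389) and with the length trend removed (adjusted p of 0.0429). In the ring, Mcm5 went from 30.3 to 15.7 FPKM and Mcm6 from 55.7 to 30.4 FPKM per the authors' deposited table (q = 0.0059 and 0.0095). The other 4 subunits did not pass. Mcm2 measured 36.8 FPKM in WT and 40.3 in Hdac3KO per the authors' deposited table (q = 0.798). PCNA went from 302 to 183 FPKM per the authors' deposited table (q = 0.0222).

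Pola1 and Orc1 showed patterns of their own. Pola1 went from 27.3 FPKM in WT DP2 to 11.1 in Hdac3KO DP2 per the authors' deposited table (q = 0.00134), a log2 change of -1.30 ± 0.32, after a change of -0.13 ± 0.26 in DP1. It lies on the X chromosome at chrX:93304767-93632155 (mm10, minus strand), and since Xist differed between the genotypes, sex and genotype cannot be told apart for it. Orc1, the largest subunit of the recognition complex, went from 3.98 to 9.25 FPKM per the authors' deposited table (q = 0.0385), a log2 change of 1.22 ± 0.42. The call ended when changes were centred on the median gene (log2 change 1.10, with an adjusted p of 0.0714) or freed of the length trend (log2 change 1.11, with an adjusted p of 0.068). Markers of thymocyte stages differed between the same groups. The double-negative thymocyte list summed to 237 FPKM in WT DP2 and 50.7 in Hdac3KO DP2, in WT mostly from Hhex, which had 221 and 21.3 FPKM per the authors' deposited table, and in it Hhex and Il7r fell and Il2ra rose. In DP1 this list summed to 53.1 FPKM in WT and 30.2 in Hdac3KO. Of its 7 genes 2 were tested in DP1, and they moved in opposite directions. In Hdac3KO 1 fell and 1 rose, with log2 changes of -2.49 and 2.49. Between the stages in WT its sum was higher in the later population, 60.8 FPKM in DP1 and 223 in DP2. Only 3 of its 7 genes were tested there, of which 2 rose and none fell. The list of double-positive markers summed to 3259 FPKM in WT DP2 and 7143 in Hdac3KO DP2. Their part in the members' changes was not tested.

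A call in one population and none in the other does not show that they differ, so the difference itself was tested, as the DP2 change minus the DP1 change, with adjustment over 10144 genes. At an adjusted p of 0.05 or less, 0 of the 49 members passed, against 2.08% of all genes. At an unadjusted p under 0.05, 10 members passed (20.4%), against 18.6% of all genes. The same test through the stage tables (the same libraries) gave 0 members at the adjusted threshold and 6 at the unadjusted one, where 22.1% of all genes passed. Many members had a deposited p at its floor in the stage tables, so their SE there are upper bounds. The members' median SE was 0.449 between stages in WT, against 0.264 between genotypes in DP1. These member counts may thus be too low, and the 6 cannot be read against the share of all genes. The smallest adjusted p belonged to Mcm2, with a difference of 1.10 ± 0.35 (adjusted p of 0.058), followed by Pola1 with -1.16 ± 0.41 (adjusted p of 0.0909), Pold2 with 1.21 ± 0.46 (adjusted p of 0.126) and Rfc2 with 1.01 ± 0.40 (adjusted p of 0.152). For Pola1 the deposited p in DP2 was at its floor. Its SE and adjusted p here are then upper bounds, and whether it passes is not settled. With both changes centred on their median gene, Pola1 passed, with a difference of -1.39 (adjusted p of 0.029). The difference lay above 0 for 35 of the 49 members, against 61.6% of all genes, and its median was 0.35 against 0.20 over all genes. Centred on the median gene, it lay above 0 for 26 members, against 47.9% of all genes.

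Between the stages, the replication genes fell from DP1 to DP2 in both genotypes. In WT 41 of the 49 members fell (83.7%) and none rose, against 16.8% of all 10851 tested genes that fell and 5.56% that rose. The median log2 change was -1.81, against -0.27 over all tested genes. Centred on the median gene, 35 were lower and none higher, against 6.54% and 10.9% of all genes, and with the length trend removed 30 were, against 4.77% and 8.61%. In Hdac3KO 31 fell (63.3%) and none rose, against 4.65% of 10231 tested genes that fell and 1.78% that rose, with a median of -1.12 against 0.01. The 2 comparisons share no libraries, and 30 members fell in both (73.2% of the 41, 96.8% of the 31). Cdc7 passed the threshold in Hdac3KO alone, and 11 passed in WT alone: Gins3, Gins4, Orc1, Pola2, Pold2, Pole2, Rfc2, Rfc5 and the 3 RPA genes. The test of the difference described above found none of these to differ between the genotypes.

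By the deposited q, every role in WT had members that fell, and in Hdac3KO every role but RPA did. All 3 licensing factors and all 6 MCM subunits fell in both genotypes. With the length trend removed, 11 WT calls were lost: Orc1, Orc6, geminin, Gins1, Gins3, Gins4, Prim2, Pole2, PCNA, Rpa2 and Rpa3. That left no WT call among the origin recognition genes. For geminin, PCNA and Rpa2 the deposited p was at its floor, so the loss of these calls is not settled. Cdc6 went from 29.7 FPKM in WT DP1 to 4.70 in WT DP2 per the authors' deposited table, with a log2 change of -2.66 ± 0.66, and from 15.9 to 2.65 FPKM in Hdac3KO. Mcm10 went from 37.8 to 5.40 FPKM in WT and from 16.4 to 2.07 in Hdac3KO per the authors' deposited table (q = 0.000835 and 0.00151), which left 14.3% and 12.6% of the DP1 level. Of the nucleotide supply genes all 5 fell in both genotypes, with Dut, which removes dUTP, at 17.9% of its DP1 level in WT and Rrm2 at 16.3% in Hdac3KO. Lig1 and Fen1 fell in both, and Lig1 went from 84.2 to 12.3 FPKM in WT per the authors' deposited table (q = 0.000835). Both CAF-1 genes fell in both.

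Of the 6 genes of the recognition complex, 2 fell in WT and 1 in Hdac3KO, against 16.8% and 4.65% of all genes. Orc6 fell in both genotypes, with log2 changes of -1.32 ± 0.37 in WT and -1.12 ± 0.33 in Hdac3KO, and Orc2, Orc3, Orc4 and Orc5 passed in neither. Orc1 went from 9.38 to 3.87 FPKM in WT per the authors' deposited table (q = 0.017) and from 11.5 to 8.39 FPKM in Hdac3KO (q = 0.42). It was thus the 1 member called in opposite directions in different comparisons, lower from DP1 to DP2 in WT and higher in Hdac3KO DP2 than in WT DP2. These calls share the WT DP2 libraries, where its level was lowest. Neither call held with changes centred on the median gene or freed of the length trend. The WT stage change of Orc1 was then -0.95 and -0.91 on the log2 scale. Pola1 went from 53.2 to 26.7 FPKM in WT and from 43.6 to 10.1 in Hdac3KO per the authors' deposited table (q = 0.0111 and 0.00151). In all 4 comparisons 36 of the 49 members lay below 0, and 7 (Gins2, Orc2, Orc3, Orc4, Orc5, Rfc1 and Rfc4) passed in none.

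**Figure D4:**
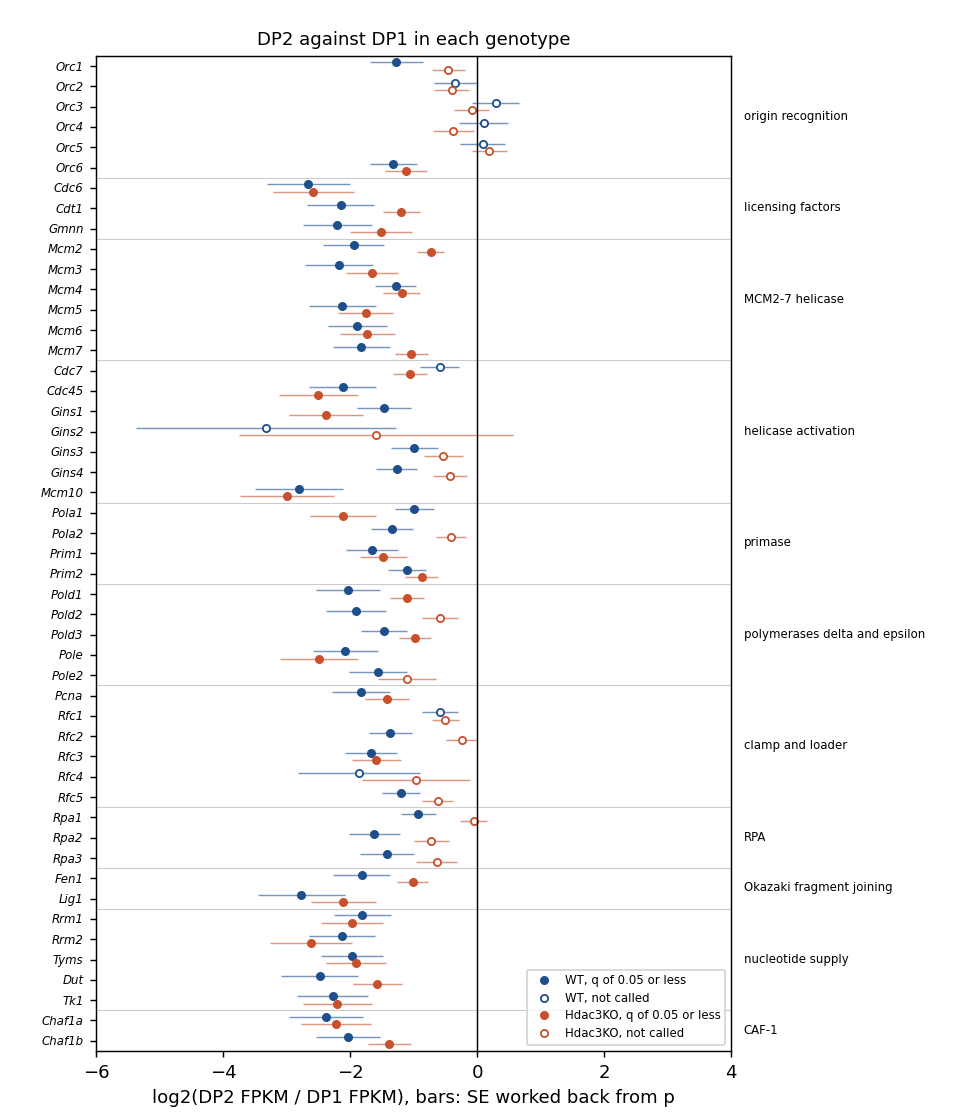
Log2 change of DP2 against DP1 for the 49 members, ordered by role, in WT and in Hdac3KO. Points are the log2 ratio of the authors' FPKM, bars are the SE derived from the deposited p, and filled points have q of 0.05 or less. In WT 41 members fell and in Hdac3KO 31 fell, and none rose in either.

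Other genes of the same pathways were read from lists chosen by function. Their counts stand beside the same shares of all genes as above: in DP1 12.9% fell and 10.7% rose, and in DP2 4.32% fell and 6.44% rose. Of 29 further fork and licensing genes, 11 fell and none rose in Hdac3KO DP1, and 4 fell and 1 rose in DP2. Their median log2 change in DP1 was -0.54, or -0.26 once the length trend was removed. The largest changes in DP1 were those of Mcm8 (11.4 to 4.42 FPKM), Dscc1 (13.9 to 6.32 FPKM) and Rnaseh2c (91.2 to 45.0 FPKM) per the authors' deposited table. Dtl, a receptor of the ubiquitin ligase that degrades Cdt1 on DNA-bound PCNA, had the largest change in DP2, from 12.8 to 3.52 FPKM per the authors' deposited table (q = 0.00134). Rnaseh2a rose in DP2, with a log2 change of 0.97 ± 0.34. Of 16 further nucleotide supply genes tested in DP1 (median log2 change -0.90, or -0.69 without the length trend), 10 fell and none rose. They were led by Shmt1, Nme1 and Mthfd2, of which Shmt1 and Mthfd2 serve the folate cycle, with log2 changes of -1.45 ± 0.36, -1.34 ± 0.33 and -1.33 ± 0.33. Of 17 tested in DP2 1 fell (Samhd1) and 1 rose (Dck), near the shares of all genes. Between the stages, 17 of the 29 further fork genes fell in WT and 13 in Hdac3KO, against 16.8% and 4.65% of all genes.

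Genes of G2 and mitosis also fell. Of 18 such genes 10 fell and none rose in Hdac3KO in DP1 (all genes: 12.9% and 10.7%). Their median log2 change was -0.72, or -0.40 once the length trend was removed. In DP2 10 of them fell and none rose (all genes: 4.32% and 6.44%), with a median of -1.04. Nuf2, a kinetochore gene, measured 74.7 FPKM in WT DP1, 32.9 in Hdac3KO DP1, 28.9 in WT DP2 and 8.74 in Hdac3KO DP2 per the authors' deposited table. The proliferation marker Mki67 measured 374 FPKM in WT DP1 and 444 in Hdac3KO DP1 per the authors' deposited table (q = 0.588), and 251 in WT DP2 and 98.7 in Hdac3KO DP2 (q = 0.00134). Cenpe and Cenpf, also of the kinetochore, lay above 0 in DP1 without passing (log2 changes of 0.48 and 0.45) and fell in DP2. The DP1 values of Mki67, Cenpe and Cenpf still carry the length trend. From DP1 to DP2, 15 of the 18 fell in WT and all 18 in Hdac3KO, against 16.8% and 4.65% of all genes. The list of cycling blast markers, which shares genes with the one of G2 and mitosis, summed to 1189.9 FPKM in WT DP1, 1010.2 in Hdac3KO DP1, 659.6 in WT DP2 and 298 in Hdac3KO DP2. The share of cycling cells in each sorted population was not measured here, and its part in the members' changes was not tested.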

How the data were processed

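RNA of 8 libraries (4 groups of 2) was rRNA-depleted, pooled and turned into strand-specific libraries, per the labels' protocols. Trimmomatic 0.32, TopHat2 2.0.11, Cuffdiff 2.1.1 and mm10 are named in the submitters' processing notes; settings and annotation are not given in the sources used here. The authors deposited 4 Cuffdiff tables with 1 FPKM per gene and group, normalized within each table, so a group's FPKM differ between tables (median ratios 1.13, 1.00, 0.963 and 0.908). The deposited p-value has a floor of 5e-05, and the Benjamini-Hochberg adjustment of that p was checked to give the deposited q-value. The deposited test statistic, a score, was not used. Depth per library is unknown, so no counting interval is given.

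Log2 changes were computed from the deposited FPKM without a pseudocount, since the deposited log2 column was damaged, and each SE is the log2 change over the normal quantile of the deposited p. Calls are q of 0.05 or less over all tested genes. The difference between populations was tested with a two-sided normal test on these SE, adjusted over all genes. The procedure was run on simulated data drawn with the same SE. That checks the calculation and cannot check the SE themselves. The length trend is a lowess curve (fraction 0.3) on the longest GENCODE M21 transcript over genes at or above 10 FPKM in each group. The median gene is that of the same genes. Python 3.11.15, scipy 1.17.1 and statsmodels 0.14.6 were used. Members, role classes, lists and tests were chosen with earlier results of these data known. Named are Hdac3, in each role the called member with the largest DP1 change, every member called between genotypes in DP2, members called in opposite directions, and at most 3 called genes per further list and comparison; Rb1, Mki67, Cenpe, Cenpf and the markers of other cell types were added after their values were seen. Other members are given by counts, ranges or single changes, and those that did not pass were chosen after their values were seen.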

Additional observations from a re-analysis of the deposited data

How the results depend on the processing

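The direction of each comparison's median and of every call held under the alternatives run (stricter and looser q, a 2-fold minimum, centring, removal of the length trend, a minimum of 5 FPKM, adjustment over all 4 tables). For Hdac3KO against WT in DP1, the 28 calls became 18 at q of 0.01, 7 with at least a 2-fold change and 14 with the length trend removed, and ranged from 22 to 34 otherwise. In DP2 the 10 calls became 6 at q of 0.01 and 6 with a 2-fold minimum, and stayed at 10 or 11 otherwise. The stage calls ranged from 30 to 41 in WT and from 27 to 32 in Hdac3KO. The count of members whose change differed between DP1 and DP2, 0 in the main test, was 2 at an adjusted p of 0.10 (Mcm2 and Pola1) and 1 with centring (Pola1), and 0 with the SE multiplied by 1.5, from the stage tables or with the length trend removed. The cause of these shifts was not tested, beyond the stricter thresholds themselves. The median gene, which centring sets to 0, had log2 changes of -0.11 and 0.12 between genotypes in DP1 and DP2 and of -0.33 and -0.01 between stages in WT and Hdac3KO. No paired analysis was possible because the tables give 1 value per group and no value per library, and leaving out a library could not be run for the same reason.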

Other observations

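Chromatin assembly genes that act with replication were not described above. Of 12, 7 fell and none rose in Hdac3KO DP1 (all genes: 12.9% and 10.7%), led by Rbbp7 (157 to 67.5 FPKM), Asf1b (37.5 to 19.95 FPKM) and Ssrp1 (144 to 78.9 FPKM) per the authors' deposited table. Over the 12 the median log2 change in DP1 was -0.74, or -0.66 once the length trend was removed. In DP2 3 fell and none rose (all genes: 4.32% and 6.44%). They were Esco2, a cohesin acetyltransferase (26.4 to 8.13 FPKM per the authors' deposited table), Rbbp7 and the histone acetyltransferase gene Hat1. From DP1 to DP2, 9 of the 12 fell in WT and 7 in Hdac3KO, against 16.8% and 4.65% of all genes.

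Of 24 genes that control entry into S phase, 3 fell in Hdac3KO DP1 (Cdkn2c, Cdk4 and Ccna2) and 1 rose (Rb1), which is no more than the shares of all genes, 12.9% and 10.7%. In DP2 4 of 25 fell, among them Ccne2 and Ccnd2, and 3 rose, among them Ccnd3 (all genes: 4.32% and 6.44%). Ccne2, a cyclin of the G1/S transition, went from 33.3 to 7.65 FPKM per the authors' deposited table (q = 0.0415), and Ccnd3 from 104 to 233 FPKM (q = 0.00134). From DP1 to DP2, 15 of 25 fell and 1, Ccnd2, rose in WT, and 13 of 24 fell and none rose in Hdac3KO (all genes falling: 16.8% and 4.65%).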
